A study of Rattus norvegicus with 10 samples.

Results

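The Cyp2c genes of the rat encode a subfamily of cytochrome P450 enzymes, which oxidise steroids, fatty acids, retinoids and drugs. The genes considered were Cyp2c7, Cyp2c11, Cyp2c12, Cyp2c13, Cyp2c22, Cyp2c23 and Cyp2c24, 7 in all. Every probe whose annotated transcript matched 1 of these symbols in rat RefSeq was taken. This gave 8 of the 41012 probes on the array, for 5 of the 7 genes (of 13832 genes named on it): 4 for Cyp2c7 and 1 each for Cyp2c11, Cyp2c12, Cyp2c13 and Cyp2c22. No probe on the array was named Cyp2c23 or Cyp2c24, so neither gene was analysed here. All 8 probes passed the filter on dim probes, which left 14277 probes for testing.

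Liver RNA came from male Wistar rats, 5 given DEN/TAA and 5 given vehicle only (control). DEN/TAA rats received 200 mg/kg diethylnitrosamine (DEN, a DNA-alkylating liver carcinogen) by intraperitoneal injection when 6 weeks old. Intraperitoneal thioacetamide (TAA, a hepatotoxin that scars the liver) followed after 2 weeks at 200 mg/kg, in cycles of 3 weeks with and 1 week without injections, during 23 weeks. The age label of every rat, treated or control, is 23 weeks, which that schedule would exceed, so age at sampling is uncertain. Each liver was read on 1 one-colour Agilent array. In whole liver RNA, fewer cells of a type and less RNA per cell cannot be told apart.

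In rats the pattern of growth hormone release differs between the sexes, and several Cyp2c genes follow it. Pulses of the hormone in males maintain Cyp2c11, the main male-specific P450 of liver and a testosterone hydroxylase, and Cyp2c13, another male-specific steroid hydroxylase. The nearly continuous release in females maintains Cyp2c12, which hydroxylates steroid sulphates, and favours Cyp2c7, which also oxidises retinoic acid. STAT5B carries much of the male signal, while the hepatocyte factor ONECUT1 (HNF6) binds and activates the Cyp2c12 promoter. Cyp2c22 encodes a retinoic acid hydroxylase of hepatocytes, and Cyp2c23 an arachidonic acid epoxygenase of kidney and liver.

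The promoters of 4 members are shown, 3 with transcripts lower in DEN/TAA livers and Cyp2c12 with a higher one. Each runs from 250 bases before to 50 after the annotated start, from RefSeq on build GRCr8, written 5′ to 3′ on the gene's strand. Capitals mark matches to either of the motifs found in them, TGTTTAC (FOXA) and ATTGAT (the ONECUT1 core), searched on both strands.
Cyp2c11: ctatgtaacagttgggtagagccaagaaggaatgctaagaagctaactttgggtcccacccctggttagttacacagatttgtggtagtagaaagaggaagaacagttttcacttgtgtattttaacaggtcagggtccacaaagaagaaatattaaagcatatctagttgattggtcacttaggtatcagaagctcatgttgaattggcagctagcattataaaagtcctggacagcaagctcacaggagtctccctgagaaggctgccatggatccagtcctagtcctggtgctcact
Cyp2c13: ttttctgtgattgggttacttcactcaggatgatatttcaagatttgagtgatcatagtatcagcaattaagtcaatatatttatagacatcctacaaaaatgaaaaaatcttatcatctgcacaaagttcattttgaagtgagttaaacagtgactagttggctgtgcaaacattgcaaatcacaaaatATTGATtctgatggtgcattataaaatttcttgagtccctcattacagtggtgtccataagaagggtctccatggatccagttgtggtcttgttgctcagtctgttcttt
Cyp2c12: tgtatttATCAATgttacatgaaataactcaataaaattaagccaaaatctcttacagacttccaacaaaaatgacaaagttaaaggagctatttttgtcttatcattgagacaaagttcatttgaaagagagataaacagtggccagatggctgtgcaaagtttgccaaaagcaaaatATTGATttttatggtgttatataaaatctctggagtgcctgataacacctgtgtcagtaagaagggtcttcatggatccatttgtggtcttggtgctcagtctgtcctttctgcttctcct
Cyp2c7: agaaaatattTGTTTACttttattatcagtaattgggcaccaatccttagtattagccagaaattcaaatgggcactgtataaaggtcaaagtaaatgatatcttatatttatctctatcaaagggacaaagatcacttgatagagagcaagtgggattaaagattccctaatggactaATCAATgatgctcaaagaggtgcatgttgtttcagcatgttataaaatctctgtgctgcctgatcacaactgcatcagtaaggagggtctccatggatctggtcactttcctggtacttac

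These windows lie at chr1:246174966-246175265 on the plus strand for Cyp2c11, chr1:248787139-248787438 on the minus strand for Cyp2c13, chr1:248676985-248677284 on the minus strand for Cyp2c12 and chr1:247966144-247966443 on the plus strand for Cyp2c7. Cyp2c12, Cyp2c13 and Cyp2c22 follow each other on chromosome 1 with 0 protein-coding genes between them in the RefSeq annotation. The windows of Cyp2c12 and Cyp2c13 were identical at 65.5% of aligned positions, the highest share among the 21 pairs of the 7 genes. The ONECUT1 core ended 66 bases before the start in Cyp2c12 and Cyp2c7 and 55 bases before it in Cyp2c13. Cyp2c12 held another copy farther upstream, and the Cyp2c11 window held none. Of 33469 rat promoters of the same length, 8.06% held that core and 3.78% the FOXA motif. TTCNNNGAA (STAT5), present in 8.87% of them, and CAAAGTCCA (HNF4A), in 0.391%, had no match in the windows of the 7 genes. A match to these letters describes the window and does not show binding.

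Signals are given as log2 scaled signal. Each value is relative to the 75th percentile of the 6232 probes above background on all 10 arrays, so 0 marks that percentile. DEN/TAA arrays had 36.1% to 46.6% of their spots well above background and control arrays 16.5% to 32.9%, which limits the precision of dim signals in control livers. Of the 14277 probes tested, limma called 35.4% higher and 13.7% lower in DEN/TAA livers, 49.1% in all (Benjamini-Hochberg adjusted p under 0.05). Higher probes made up 72.1% of these calls, but 26.3% with normexp background correction, 50.3% with the percentile over all probes, 59.8% with quantile normalisation, 62.6% in the authors' deposited table and 93.5% with spike-in scaling. The median log2 difference of all probes was 0.32 here and between -0.38 and 1.00 over those scalings, and each change stands against that shift.

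The male-specific genes fell. Cyp2c11 had log2 scaled signals of -0.77, -1.88, -3.97, -5.66 and 1.26 in DEN/TAA replicates 1 to 5, against 3.62, 4.60, 4.83, 5.07 and 4.75 in control replicates 1 to 5. The groups did not overlap, as for 9.43% of probes tested that were lower in DEN/TAA and 34.4% in either direction, and the gap between them was 2.36. Cyp2c11 differed by -6.78 (SE 1.03, limma adjusted p = 2.87e-04), 110-fold lower with a 95% confidence interval of 23.0- to 525-fold. It ranked as the 13th lowest difference of 14277.

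The loss of Cyp2c11 was uneven between treated livers. Against the control mean, DEN/TAA replicate 5 retained 10.1% of the signal and replicate 1 retained 2.46%. Replicates 2, 3 and 4 retained 1.14%, 0.267% and 0.0830%. Replicate 4 was above background, but its -5.66 lay near the lowest signal called above background on its array (-6.76). Its share is therefore less precise. In the authors' deposited log2 values, which are not background-subtracted, Cyp2c11 differed by -5.41. The standard deviation was 2.70 over DEN/TAA livers and 0.56 over control livers on the log2 scale. That of the DEN/TAA livers exceeded the one of 99.9% of probes tested, whose median was 0.28. The 2 lowest livers lay on slide 2, on which the control liver read 4.83. Without that slide Cyp2c11 differed by -4.97 (limma adjusted p = 0.00136), and within slides 1, 2 and 3 by -5.44, -9.65 and -3.65. Leaving out DEN/TAA replicate 4 gave -5.92 and leaving out replicate 5 gave -7.65.

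Cyp2c13 fell less than Cyp2c11. It read 2.04, 1.99, 1.21, 0.26 and 2.73 in DEN/TAA replicates 1 to 5, against 3.34, 4.27, 4.07, 4.26 and 4.69 in control replicates 1 to 5. The groups did not overlap, with a gap of 0.62 between the highest DEN/TAA and the lowest control liver. The log2 difference was -2.48 (SE 0.41, limma adjusted p = 5.29e-04), or 5.59-fold lower with a 95% confidence interval of 2.98- to 10.5-fold. Subtracting a constant from each array leaves the difference between its Cyp2c11 and Cyp2c13 signals unchanged, while quantile normalisation and normexp can alter it. Within each array, this difference was taken relative to its control mean. It was -4.30 ± 1.79 in DEN/TAA livers and varied by 0.33 (SD, n = 5 each) in control livers. The values ran from -6.37 to -1.91 in DEN/TAA livers and from -0.39 to 0.37 in control livers, without overlap. Among the other pairs of members, the groups overlapped for Cyp2c7 with Cyp2c11, Cyp2c7 with Cyp2c13 and Cyp2c13 with Cyp2c22. They did not overlap for the remaining pairs.

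**Figure D1:**
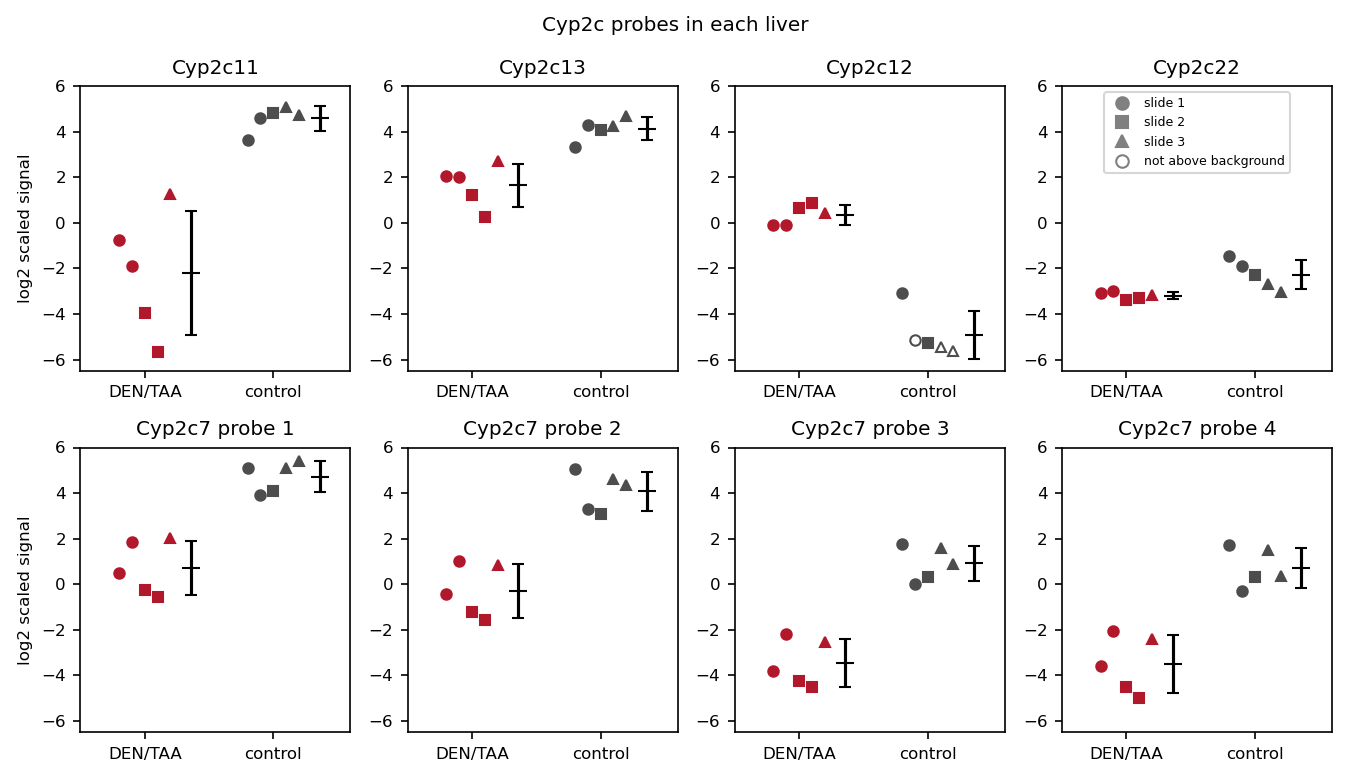
Log2 scaled signal of the 8 Cyp2c probes in each liver, DEN/TAA (red) left of control (grey), with the mean and SD beside each group of 5. Marker shapes give the slide and open markers a probe not well above background; Cyp2c12 is the probe that is higher in DEN/TAA livers, and the Cyp2c11 points of DEN/TAA livers run from -5.66 to 1.26.

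The female-specific Cyp2c12 rose. It read -0.09, -0.11, 0.63, 0.88 and 0.42 in DEN/TAA replicates 1 to 5, against -3.07, -5.13, -5.28, -5.44 and -5.64 in control replicates 1 to 5. Its signal was detected well above background in every DEN/TAA liver and in 2 of 5 control livers, replicates 1 and 3. The groups did not overlap, as for 25.0% of probes tested that were higher in DEN/TAA, and were 2.97 apart at their nearest livers. The log2 difference was 5.26 (SE 0.44, limma adjusted p = 4.76e-06), or 38.3-fold with a 95% confidence interval of 19.7- to 74.4-fold. Since 3 of 5 control livers gave no detected signal, this size is uncertain.

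Its size depended on how dim control signals were treated, its direction did not. With undetected control arrays raised to the lowest signal called above background on each array, the difference was 4.86. It was 3.30 with normexp background correction and 2.99 in the authors' deposited log2 values, which are not background-subtracted. Within slides 1, 2 and 3 the difference was 4.00, 6.03 and 5.95. Control replicate 1, with the highest Cyp2c12 of the control livers, also had their lowest Cyp2c11 and Cyp2c13. Without it Cyp2c12 differed by 5.72.

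Cyp2c7, the female-predominant member, fell, and its 4 probes gave similar differences. The probe A_43_P13939 (probe 1 in the plots) read 0.49, 1.86, -0.25, -0.54 and 2.05 in DEN/TAA replicates 1 to 5, against 5.08, 3.89, 4.09, 5.12 and 5.39 in control replicates 1 to 5. Its groups were 1.85 apart, and it differed by -3.99 (SE 0.52, limma adjusted p = 1.00e-04), 15.9-fold lower with a 95% confidence interval of 7.22- to 35.2-fold. The probes A_44_P651091, A_44_P484669 and A_44_P698234 (probes 2, 3 and 4) differed by -4.35, -4.38 and -4.22 (limma adjusted p of 1.53e-04 or less). None of these 4 probes of 1 gene overlapped between groups, and 9.43% of probes tested were lower without overlap. Within a DEN/TAA liver, their changes from the control mean lay within 0.77 of each other. The RefSeq table also lists the related gene Cyp2c7l1, and whether these probes read it was not tested.

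Cyp2c22 fell least. It read -3.10, -3.01, -3.39, -3.29 and -3.17 in DEN/TAA replicates 1 to 5, against -1.47, -1.90, -2.28, -2.69 and -3.05 in control replicates 1 to 5. The lowest control liver lay within the range of the DEN/TAA livers, so this was the member probe whose groups overlapped. The log2 difference was -0.92 (SE 0.27, limma adjusted p = 0.0147), or 1.89-fold lower with a 95% confidence interval of 1.26- to 2.84-fold. With spike-in scaling it was -0.24 (limma adjusted p = 0.579), against a median of 1.00 for all probes in that scaling, and without slide 2 it was -0.82 (limma adjusted p = 0.134). The standard deviation was 0.15 over DEN/TAA livers and 0.62 over control livers.

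In all, 7 of 8 member probes were called lower and 1 higher, against 13.7% and 35.4% of probes tested. Without the call of Cyp2c22, 6 were lower with spike-in scaling, without slide 2 and among changes of at least 2-fold. Since 4 of the 7 lower probes read 1 gene, these are 4 lower genes and 1 higher. Cyp2c6v1, the other Cyp2c gene with a named probe, was also called lower, by -2.15 (SE 0.25, limma adjusted p = 5.03e-05). Its log2 scaled signal averaged 2.18 ± 0.46 in DEN/TAA livers and 4.33 ± 0.38 in control livers (SD, n = 5 each). The probe sequences are not in the scanner files, so how far Cyp2c probes share signal was not tested. The Cyp2c12 probe went against the 7 others.

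**Figure D2:**
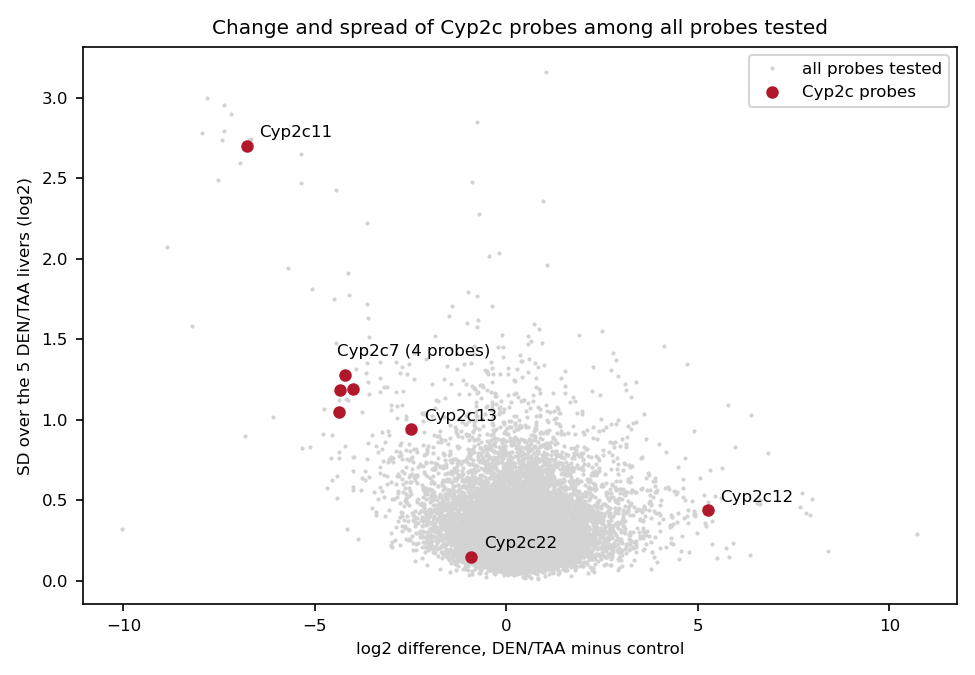
SD over the 5 DEN/TAA livers (log2) against the log2 difference, DEN/TAA minus control, for all probes tested (grey) and the 8 Cyp2c probes (red). Cyp2c11 combined a difference of -6.78 with an SD of 2.70, while Cyp2c22 lay at -0.92 with an SD of 0.15.

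The same livers were lowest for each lower member. DEN/TAA replicates 3 and 4 were the 2 lowest livers for all 7 lower probes, as for 16.4% of all probes called lower and 7.72% of probes tested. Replicate 4 was the lowest for 6 of these 7 probes, as for 38.7% of all probes called lower and 15.6% of probes tested. Since 4 of these 7 probes read Cyp2c7, they are not 7 separate genes. Cyp2c11 and Cyp2c13 had their highest DEN/TAA signal in replicate 5, Cyp2c7 in replicate 5 by A_43_P13939 and in replicate 2 by its other probes. Replicate 5 was the highest for 49.6% of all probes called lower. For Cyp2c12 the order differed: replicate 4 was the highest and replicate 3 the second, while replicates 1 and 2 were the lowest. Replicates 3 and 4 shared slide 2, so those rats and that slide cannot be told apart.

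**Figure D3:**
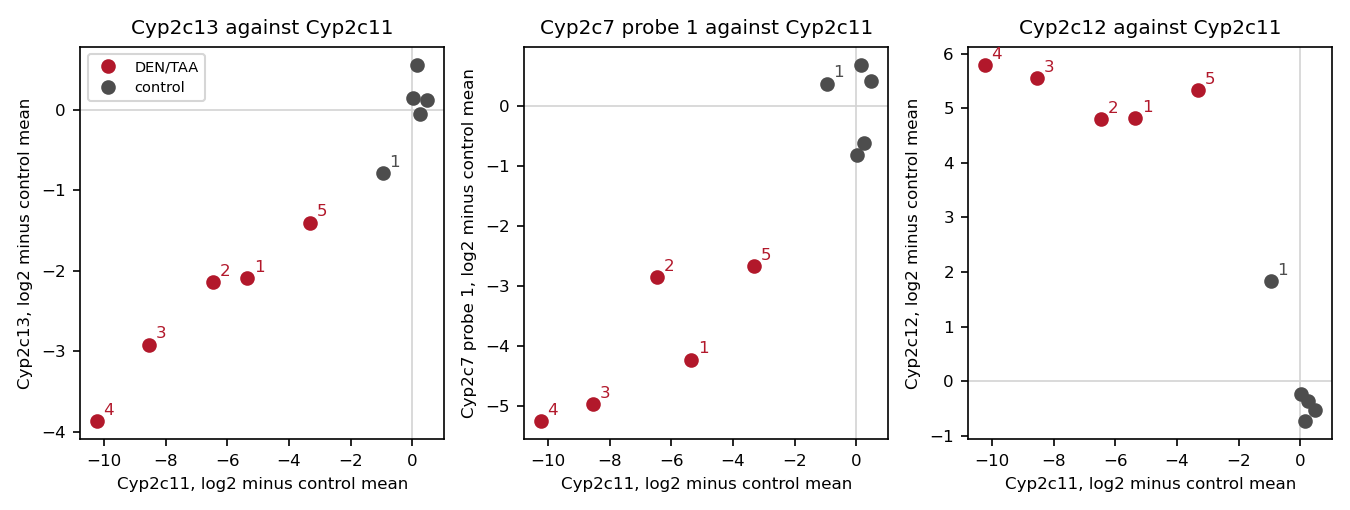
Log2 change from the control mean of Cyp2c13, Cyp2c7 (A_43_P13939) and Cyp2c12 against that of Cyp2c11 in the same liver, DEN/TAA in red with replicate numbers and control in grey with replicate 1 numbered. DEN/TAA replicates 3 and 4 lie lowest for the 3 lower genes and highest for Cyp2c12.

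The genes closest to Cyp2c11 in their profile over the 10 arrays were the urinary lipocalins Mup4l3, Mup5 and Mup4l4, made by male rat liver. Their changes from the control mean differed from those of Cyp2c11 by a root mean square of 0.60, 0.60 and 0.66 on the log2 scale, the smallest among 6036 genes compared. Each of them ranked the DEN/TAA livers 5, 1, 2, 3 and 4 from highest to lowest, as Cyp2c11 did, and Mup5 is among the male-biased genes listed. How far the probes of these related lipocalin genes share signal was not tested. Closest to Cyp2c12 were Anxa2, an annexin, Slc25a4, a mitochondrial ADP/ATP carrier, and Bex3, at 0.56, 0.70 and 0.71. They differed by 5.17, 4.72 and 4.90 (limma adjusted p of 5.43e-07 or less), and none ranked the DEN/TAA livers as Cyp2c12 did. All points share the same arrays and the same contrast, so closeness is a description of these livers.

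Other genes with male-biased expression in rat liver also fell. All 9 with a tested probe of 10 listed were lower (8 to 9 over the 6 scalings), with a median difference of -4.76 against 0.32 for all probes tested. Obp3, a urinary lipocalin, differed by -8.86 (SE 0.83, limma adjusted p = 9.72e-06). It was detected in 3 of 5 DEN/TAA livers, and with undetected arrays at the floor (the lowest signal called above background on each) its difference was -8.13. Sult1c3, a sulphotransferase, differed by -4.76 (SE 0.44, limma adjusted p = 9.20e-06) and averaged -1.82 ± 1.06 in DEN/TAA livers and 2.94 ± 0.41 in control livers (SD, n = 5 each). Cyp3a2, a male-predominant P450, differed by -5.69, with changes from the control mean between -8.33 and -3.20 in single DEN/TAA livers. For 7 of the 9 genes replicates 3 and 4 were the lowest DEN/TAA livers, against 16.4% of all probes called lower. For 8 of 9 replicate 5 was the highest, against 49.6% of all probes called lower. Mup4 and Sult1e1 were detected in 4 of 5 DEN/TAA livers and Obp3 in 3 of 5. Part of this order may therefore rest on undetected signals. Whether the probes of the lipocalin genes Obp3, Mup4 and Mup5 share signal was not tested, so these may not be 9 separate readings.

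Genes with female-biased expression did not rise with Cyp2c12. Of 7 listed, 4 had a tested probe, 3 were lower (2 to 4 over the 6 scalings) and 0 were higher, with a median of -2.23. Sult2a1, a hydroxysteroid sulphotransferase, differed by -4.21 (SE 0.44, limma adjusted p = 2.34e-05). Cyp2a1, a testosterone hydroxylase, differed by -1.57 (SE 0.28, limma adjusted p = 7.35e-04), and by -0.89 with spike-in scaling (limma adjusted p = 0.0556). Srd5a1, a steroid reductase, differed by -2.36, and the prolactin receptor gene Prlr by -2.10 without passing the test (limma adjusted p = 0.0681). Prlr passed it in 8 of its alternatives, among them the replicate block (limma adjusted p = 0.0277), the slide block (limma adjusted p = 0.0437) and normexp (limma adjusted p = 0.00513). A1bg and Sult2a2 did not pass the filter on dim probes.

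**Figure D4:**
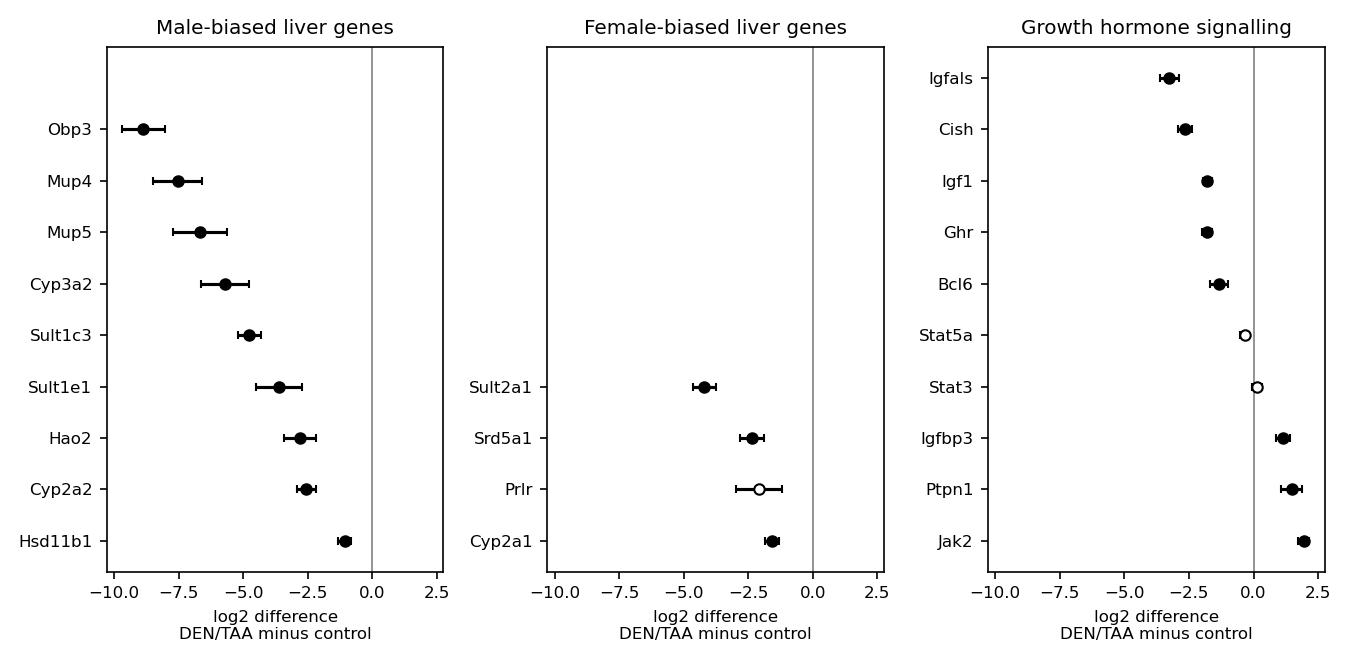
Log2 difference, DEN/TAA minus control, with its SE for the tested male-biased, female-biased and growth hormone genes outside the subfamily; filled points passed limma's test. All 9 male-biased genes and all 4 female-biased genes lie at or below -1.07, while growth hormone genes run from -3.26 (Igfals) to 1.95 (Jak2).

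Growth hormone genes went both ways. Of 10 tested from 14 listed, 5 were lower (4 to 6 over the 6 scalings) and 3 higher (1 to 4), with a median of -0.84. Igf1, the growth factor that the hormone induces in liver, differed by -1.79 (SE 0.18, limma adjusted p = 1.54e-05) and Cish, a STAT5 target that restrains its receptor, by -2.65 (SE 0.27, limma adjusted p = 1.67e-05). The receptor gene Ghr differed by -1.79 by its brightest probe and by -1.32 and -1.58 by the others. Jak2, the receptor's kinase, rose by 1.95, with 1 of 5 control arrays above background, or by 1.03 with the others at the floor and 0.084 without a call with normexp (limma adjusted p = 0.832). Igfbp3, which carries IGF1 in plasma, rose by 1.14 (SE 0.28, limma adjusted p = 0.00533), a call that ended without slide 2 (1.01, limma adjusted p = 0.0532). Stat5b, Socs1, Socs2 and Socs3 did not pass the filter.

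Of the liver transcription factors and nuclear receptors, 7 of 14 tested were lower (3 to 12 over the 6 scalings) and 0 higher, with a median of -1.01. Onecut1 differed by -2.74 (SE 0.33, limma adjusted p = 6.11e-05), averaging -2.23 ± 0.63 in DEN/TAA livers and 0.51 ± 0.54 in control livers (SD, n = 5 each). Foxa1 differed by -2.26 (SE 0.33, limma adjusted p = 2.33e-04).

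Most tested genes of the wider Cyp2 family fell as well. Of 18 tested Cyp2 genes 17 were lower (8 to 17 over the 6 scalings) and 0 higher (0 to 1), with a median of -1.39, so the lower Cyp2c members shared their direction with most of that list. Cyp2d4 differed by -2.43 (SE 0.20) and Cyp2t1 by -1.93 (SE 0.15), both with limma adjusted p of 4.76e-06 or less. Genes that supply electrons and haem to P450s were divided, with 5 of 11 lower (1 to 5), 1 higher (0 to 5) and a median of 0.092. Cyb5r3, the reductase of cytochrome b5, differed by -1.47 and Cyb5a by -0.88, or -0.21 without a call with spike-in scaling (limma adjusted p = 0.494). Cpox, of haem synthesis, rose by 1.23, a call that ended under 4 of the 5 other scalings (limma adjusted p from 0.0835 to 0.340).

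Genes of the substrates of Cyp2c enzymes went both ways. Of 11 tested genes of arachidonic acid oxidation 5 were lower (3 to 6) and 3 higher (1 to 4), with a median of -0.88. Ephx1, microsomal epoxide hydrolase, rose by 2.31 (SE 0.25), while Cyp4a2 and Cyp4f4, fatty acid hydroxylases, differed by -2.78 and -2.23. Of 9 tested retinoid genes 4 were higher (1 to 5) and 1 lower (0 to 3), with a median of 0.44. Aldh1a1, which makes retinoic acid, rose by 2.67 (SE 0.32), and Rbp4, the plasma retinol carrier, differed by -1.19 (SE 0.16), or -0.34 and -0.51 without a call with quantile and spike-in scaling. Pla2g4a, Crabp2 and Cyp26a1 were called higher, but none was above background on a control array, and with those arrays raised to the floor they differed by -0.61, -0.29 and 0.23.

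Markers of hepatocytes, in which Cyp2c genes are expressed, were detected on all arrays. Of 8 hepatocyte markers 6 were lower (1 to 7) and 0 higher (0 to 1), with a median of -0.91, and their mean log2 scaled signal ran from 3.94 to 4.18 in DEN/TAA livers and from 4.71 to 5.11 in control livers. Ttr, transthyretin, differed by -2.04 and Serpina1, a protease inhibitor, by -1.13, or by -0.23 and -0.45 without a call with quantile and spike-in scaling. Of 7 tested pericentral genes 6 were lower and 1 higher (median -2.08), among them Oat at -4.17 and Cyp1a2 at -4.43, while Rhbg rose by 2.47. All 7 periportal genes were lower (4 to 7, median -1.77), among them Ass1 at -2.07 and Gls2 at -2.32.

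Markers of other liver cells moved the opposite way. All 4 tested of 6 biliary and progenitor markers were higher (3 to 4), with a mean signal of -2.28 to -1.49 in DEN/TAA livers and -5.16 to -4.57 in control livers. Krt19, a duct keratin, was above background on no control array and at least 9.91-fold higher in DEN/TAA livers. Epcam differed by 2.66. Of 7 tested stellate cell and myofibroblast markers 6 were higher (4 to 7), with -1.88 to -1.22 in DEN/TAA livers and -3.96 to -3.46 in control livers, and Lum was on no array above background. Col1a2 rose by 2.88, and Dcn, above background on 2 of 5 control arrays, by 4.34, or by 3.43 with the others at the floor. Col1a1 was not called by its brightest probe (0.60, limma adjusted p = 0.270), while its other tested probe differed by 3.98. Of 10 macrophage markers 8 were higher (6 to 9) and 1 lower (0 to 2), with -1.66 to -1.01 in DEN/TAA livers and -3.28 to -2.17 in control livers. Cd68 rose by 1.95 and Cd14 differed by -1.16, or by -0.48 without a call with spike-in scaling (limma adjusted p = 0.157). Trem2, above background on no control array, was at least 5.32-fold higher. Cd163, chosen after its values were seen, was also on no control array above background, and its difference of 0.84 became -0.23 with those arrays at the floor. An "at least" fold sets the DEN/TAA mean against control arrays raised to their lowest signal called above background. It holds for the percentile scaling over detected probes alone and is not a bound for the other scalings. Of 3 tested endothelial markers 2 were higher (1 to 2), with -1.32 to -0.96 in DEN/TAA livers and -2.46 to -1.59 in control livers, and Pecam1 was on no array above background. Lyve1 rose by 1.20, or by 0.62 without a call with normexp (limma adjusted p = 0.0625), and Oit3 by 1.80. Their part in the Cyp2c differences was not tested.

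Across scalings the members kept their directions. Over 6 ways of scaling, Cyp2c11 ran from -7.08 to -5.41, Cyp2c13 from -2.79 to -1.80 and the 4 Cyp2c7 probes from -4.68 to -3.08, all called lower. Cyp2c12 ran from 2.99 to 5.94 and was called higher in each.

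**Figure D5:**
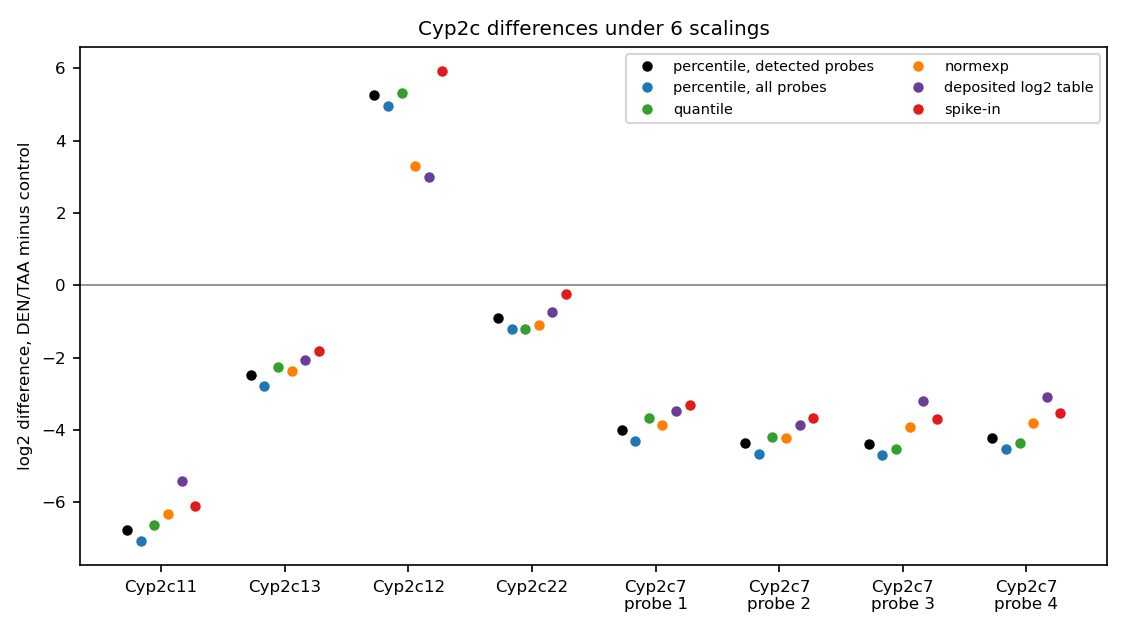
Log2 difference, DEN/TAA minus control, of each Cyp2c probe under 6 scalings of the arrays. Cyp2c12 lies above 0 and the other probes below it in every scaling, with Cyp2c22 nearest to 0 at -0.24 with spike-in scaling.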

How the data were processed

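Liver RNA of 10 rats (150 ng labelled per array, per the labels) was hybridised to Agilent 4x44K arrays. Per the file headers, the deposited spot intensity came from version 11.5.1.1 of Feature Extraction (15.5 per the submitters' processing notes), which subtracts background. The authors' deposited log2 table ranked spots as their raw median signal did, with column medians of 8.59, and its scale between arrays is known only from that. Arrays lay on 3 slides.

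Outlier-flagged and control spots were left out, spots of 1 probe averaged, and each array's 75th percentile subtracted from log2 processed signal. Probes well above background on at least 5 arrays entered a limma fit (version 3.58.1, R 4.3.3, two-sided, no covariates, all 10 arrays, Benjamini-Hochberg over all probes tested). Of 41012 probes 17502 had 1 symbol, 0 several and 23510 none in RefSeq GRCr8. A listed gene was represented by its brightest tested probe. The labels number replicates without naming animals, so p-values measure the spread between these samples. No spot was saturated.

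Members, lists and tests were chosen with earlier results of these data known. Every member probe is named, with up to 2 called genes per list and direction (smallest adjusted p), the 3 nearest profiles of Cyp2c11 and Cyp2c12, and other list genes chosen after their values were seen. Normexp (offset 50) used the median spot signal, since the files hold no mean. Other scalings, filters, blocks by slide and by replicate number, and leaving out each rat were tried. The array was designed on rn4, so gene coordinates are given for promoter windows alone.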

Additional observations from a re-analysis of the deposited data

Results flagged for a closer look

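In control replicate 1 the Cyp2c12 signal was -3.07 on the log2 scale, far above the other control livers, which lay between -5.64 and -5.13. The gap to the nearest of them was 0.802 of the range of the control livers. Of 16 groups of 5 livers examined (8 probes in DEN/TAA and in control livers), this was the one past Dixon's critical value, and chance flags about 1 group in 20. The probe was well above background in that liver, in which Cyp2c11 and Cyp2c13 were the lowest of the control livers and Cyp2c22 and 3 of 4 Cyp2c7 probes the highest. For Cyp2c12 the nearest and the lowest of the other control livers, replicates 2 and 5, were not above background. The gap and the range therefore rest on undetected signals.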

How the results depend on the processing

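Cyp2c11, Cyp2c13, Cyp2c12 and the 4 Cyp2c7 probes kept their direction and their call in each alternative with a test, and their direction within each slide. Cyp2c22 lost its call with spike-in scaling (-0.24) and without slide 2 (-0.82, adjusted p = 0.134), the cause not tested. The count of member probes called lower was 4 with 1 probe per gene, since that leaves 1 Cyp2c7 probe, and the count called higher was 0 with the filter on all 10 arrays, which removes Cyp2c12. It was 6 with spike-in scaling, without slide 2 and at 2-fold or more, each time through Cyp2c22. Leaving out each rat gave 7 lower and 1 higher throughout. Of all probes, 7006 were called (5048 higher, 1958 lower). The count was 3792 (2673 and 1119) with 1 probe per gene, 3938 (2798 and 1140) at 2-fold or more, 3576 (2059 higher) with the filter on all arrays, 25180 (20436 lower) with no filter and 4139 (2923 and 1216) without slide 2. Higher and lower calls numbered 1498 and 4198 with normexp, 8974 and 628 with spike-in scaling, 2930 higher with the percentile over all probes and 3206 higher with undetected arrays at the floor. Leaving out 1 rat gave 5949 to 7123 calls. The floor and the omission of slide 2 were chosen after seeing the data. Replicate numbers are shared between the groups. Departures from the group mean correlated from -0.21 to 0.33 between same-numbered livers, most of which shared a slide. Pairing was thus neither shown nor excluded. With the replicate block 6972 probes were called, and Cyp2c11 differed by -6.78 (adjusted p = 0.00144). Of 62 genes examined outside the subfamily, 6 turned direction: Cd163 (-0.090 in the deposited table, -0.89 with normexp, -0.23 with the floor), Cyp26a1 (-0.52 with normexp), Crabp2 (-0.37 with normexp, -0.29 with the floor), Pla2g4a (-0.55 and -0.61), Stat5a (0.33 with spike-in scaling) and Stat3 (-0.081 in the deposited table, -0.10 with normexp, -0.18 with the percentile over all probes, -0.045 with quantile normalisation, -0.096 without slide 2). With the percentile over detected probes, Stat5a differed by -0.35 and Stat3 by 0.12, without a call (limma adjusted p = 0.139 and 0.629). Stat5a was called lower in the deposited table (-0.33), with normexp (-0.63), the percentile over all probes (-0.65) and quantile normalisation (-0.66). It was also called lower without control replicate 1 (-0.46). Stat3 was called higher with spike-in scaling (0.80, limma adjusted p = 0.0312). Signal over background limits Cyp2c12 in control livers.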
